A study of Mus musculus with 6 samples.

Results

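The respiratory chain and the ATP synthase of mouse retina were followed through 103 genes of 55335 in the count table. They were chosen by symbol alone: Nduf subunits a, b, c, s and v, Sdha to Sdhd, symbols beginning with Uqcr, Cox4 to Cox8 or Atp5, Cyc1, and the mitochondrial symbols of Nd, Co, Atp and Cytb. Of these, 90 lie in the nucleus (40 of complex I, 4 of II, 9 of III, 19 of IV and 18 of V) and 13 on the mitochondrial genome (7 of complex I, 1 of III, 3 of IV and 2 of V). A further 8 matching symbols ending in -ps were left out; among them, Ndufb1-ps, annotated as a non-coding RNA, had 2895 to 4556 reads per library. A total of 4 genes kept by the symbol rule (Cox6c2, Ndufb4c, Ndufs6b and Ndufa11b) are annotated as processed pseudogenes, and Atp5s matches the pattern but encodes a coupling factor rather than a structural subunit.

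RNA came from material pulled down from retina with an antibody against HA, a short peptide tag; the protein carrying the tag is not stated in the labels. All mice were C57BL/6, of wild type genotype by the labels, and 10 weeks old. The 2 groups were naive (3 libraries) and SOHU (3 libraries), a model of raised eye pressure made by silicone oil in the front chamber of the eye, with retinas collected 1 week after the oil. The labels name retinal ganglion cells as the cell type. The protocol text that names the oil stands on the naive samples too, so the groups rest on the labelled condition, and whether naive eyes had any injection is not stated. They do not state which libraries, if any, are separate animals, so the p-values speak for the spread among these 6 libraries, which could be technical.

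The respiratory chain moves electrons from NADH and succinate to oxygen. Complexes I, III and IV use that flow to pump protons across the inner mitochondrial membrane, and complex V, the ATP synthase, lets the protons back to make ATP. Complex II, the succinate dehydrogenase, is built from nuclear genes alone, whereas the other complexes join nuclear subunits, made on cytosolic ribosomes, with subunits that mitochondria transcribe and translate themselves. Retinal ganglion cells, whose unmyelinated axons run within the retina, depend strongly on this pathway.

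Libraries held 21691354 to 26824919 counted reads. Nuclear members took 2.68 to 3.14% of the reads in naive and 2.48 to 2.74% in SOHU libraries; mitochondrial members took 0.049 to 0.0683% and 0.0602 to 0.1394%. Other markers moved in the same libraries. Of 18 ganglion cell markers, 17 fell, and their summed level went from 4330 to 7199 CPM (reads scaled by the depth of the library, with TMM factors) in naive to 2100 to 2972 CPM in SOHU. Of 13 markers of Müller glia and astrocytes, 10 rose (summed 13816 to 18628 against 26423 to 52368 CPM), as did 3 of 7 vascular markers and 5 of 12 microglial markers. Of 13 markers of amacrine and horizontal cells, 5 fell and 0 rose (summed 4492 to 5264 against 2242 to 3004 CPM, without overlap). Rod markers, with 0 of 14 past the threshold in edgeR (1 in DESeq2, and 1 at an unadjusted p under 0.05), summed to 6661 to 8093 CPM in naive and 6327 to 9808 CPM in SOHU, so transcripts of cells other than ganglion cells were present in every library. In such bulk material, fewer cells of a type and less RNA per cell cannot be told apart, and the part of these shifts in the results below was not tested.

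SOHU and naive libraries were compared gene by gene to ask whether the subunits of each complex, and of each genome, differ in level. Of the mitochondrial genes, 3 passed as higher in SOHU and 7 of 12 overlapped between groups, because SOHU replicate 1 lay close to the naive libraries. Few nuclear genes passed. In the edgeR quasi-likelihood test, with a Benjamini-Hochberg adjusted p under 0.05 over 17687 genes as the threshold, 3 of 12 tested mitochondrial members rose and 0 fell. Of 86 tested nuclear members, 1 rose (Cox6b2) and 2 fell (Ndufa10 and Atp5c1). The background was 8.02% of all genes tested for rises and 5.93% for falls, so the nuclear calls, of 86 members, are below it. The median log2 fold change, SOHU minus naive, was 0.98 over the mitochondrial members and -0.18 over the nuclear members, against 0.01 over all genes tested. All 12 tested mitochondrial members had values above 0, from 0.42 to 1.27, and 70 of 86 nuclear members had values below 0. The nuclear direction turned when libraries were scaled to the summed ganglion cell markers (median 0.98, with all genes at 1.15). Such a scaling shifts all genes by nearly the same amount. The nuclear median minus that of all genes was therefore bound to change little (-0.17, against -0.19 before) and is no separate check. Under that scaling 81 nuclear and 12 mitochondrial members were higher and 0 lower, with 71.7% of all genes higher and 0.0113% lower.

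The counts depended on the tool. DESeq2 called 10 mitochondrial members higher, 2 nuclear members higher and 7 lower, with 11.4% of all genes higher and 9.9% lower. Limma-voom called 2 mitochondrial members (mt-Co3 and mt-Cytb) higher, 1 nuclear member higher and 3 lower, with 7.75% and 6.77% in the background. Groups that do not overlap were also counted: 5 mitochondrial members had every SOHU library above every naive library, against 19.3% of all genes, and 22 nuclear members (25.6%) had every SOHU library below, against 19.7% of all genes. A further 4 nuclear members (4.65%) had every SOHU library above, against the same 19.3%. A total of 5 members had too few reads for the test: mt-Nd4l (2 to 17 reads per library), the testis isoform Cox7b2, Ndufa11b, and Cox8c and a second Atp5o entry with 0 reads in every library.

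**Figure D1:**
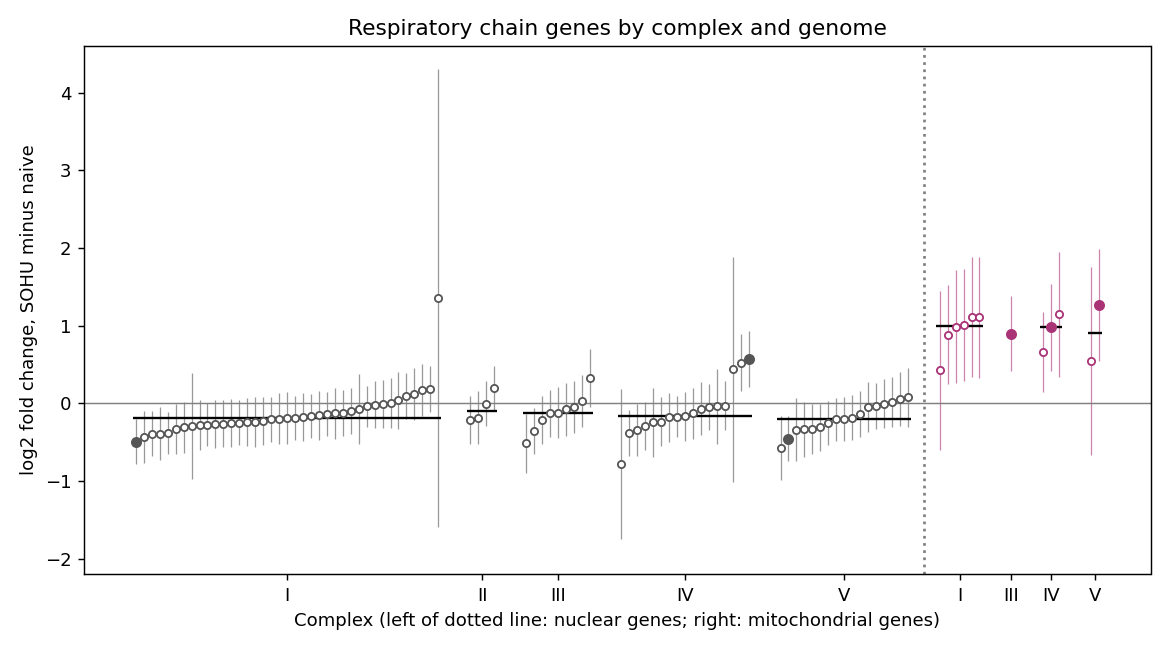
Log2 fold change, SOHU minus naive, of the 98 tested members on the vertical axis, sorted within each complex, nuclear genes left and mitochondrial genes right of the dotted line. Filled points passed the threshold, whiskers are 95% intervals and short lines are medians; the mitochondrial medians lie near 1 and the nuclear medians between -0.20 and -0.09.

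On the mitochondrial genome, mt-Cytb encodes cytochrome b, the electron-carrying core of complex III. It had 109.5, 150.3 and 125.3 CPM in naive replicates 1 to 3 and 162.8, 271.6 and 282.9 CPM in SOHU replicates 1 to 3. SOHU replicate 1 stood just above the naive range and the other SOHU libraries well above it. This 1.86-fold rise, 0.90 on the log2 scale (SE 0.21, 95% interval 0.42 to 1.38), passed with an edgeR adjusted p of 0.0269. The exact two-sided permutation test gave p = 0.1, the smallest that 3 against 3 allow, here and for every other member whose groups do not overlap.

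mt-Atp6, the proton channel subunit a of the ATP synthase, had 3.12, 3.35 and 3.05 CPM in naive and 4.2, 8.79 and 9.96 CPM in SOHU, without overlap. It rose 2.41-fold (log2 fold change 1.27, SE 0.32, edgeR adjusted p = 0.0321). mt-Co3, a core subunit of cytochrome c oxidase, had 4.93, 6.14 and 4.95 CPM in naive and 7.27, 12 and 12.4 CPM in SOHU, again without overlap and with SOHU replicate 1 nearest to the naive libraries. It rose 1.97-fold (log2 fold change 0.98, SE 0.25, edgeR adjusted p = 0.0332). The other complex V gene, mt-Atp8, rested on 8 to 24 reads per library (log2 fold change 0.55, SE 0.54, edgeR adjusted p = 0.528), too few to resolve it.

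The complex I genes also differed between SOHU libraries. mt-Nd6, the only subunit gene on the light strand, had 16.6, 18.7 and 17.8 CPM in naive and 18.7, 61.3 and 34.4 CPM in SOHU. SOHU replicate 1 was barely above the highest naive library, and the log2 fold change of 1.11 (SE 0.35) missed the threshold with an edgeR adjusted p of 0.0613. mt-Nd1, a core subunit of the membrane arm, had 102.6, 128.3 and 115.8 CPM in naive and 111.3, 317.3 and 269.4 CPM in SOHU. Here SOHU replicate 1 lay inside the naive range, and the same held for mt-Nd2 (28.3, 35.7 and 33.0 against 32.2, 102.7 and 74.0 CPM), another membrane arm subunit. mt-Nd4 (42.2, 55.4 and 47.8 against 45.6, 122.8 and 120.0 CPM) and mt-Nd5 (35.3, 55.3 and 44.0 against 48.0, 114.1 and 86.2 CPM), the large subunits thought to carry proton channels, overlapped through SOHU replicate 1 too. mt-Nd3 rested on 11 to 23 reads per library (0.655, 0.687 and 0.486 against 0.540, 1.03 and 0.894 CPM). Log2 fold changes of these 5 ran from 0.42 to 1.11 with edgeR adjusted p between 0.0613 and 0.567.

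In complex IV, mt-Co1, which holds the oxygen-reducing centre, had 160.1, 222.2 and 208.2 CPM in naive and 204.9, 336.0 and 395.6 CPM in SOHU. Its groups overlapped at SOHU replicate 1 (log2 fold change 0.67, SE 0.23, edgeR adjusted p = 0.0808). mt-Co2, which receives electrons from cytochrome c, had 1.77, 2.75 and 2.70 CPM against 2.87, 6.55 and 6.54 CPM, without overlap (log2 fold change 1.15, SE 0.36, edgeR adjusted p = 0.0612). The ribosomal RNAs of the same genome rose as well: mt-Rnr2 had 95.1, 113.0 and 104.8 CPM against 134.7, 239.2 and 180.9 CPM (log2 fold change 0.83, SE 0.20, edgeR adjusted p = 0.0264), and mt-Rnr1 rose by 0.96 on the log2 scale (SE 0.24, edgeR adjusted p = 0.0316).

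The mitochondrial calls depended on which libraries were in the test, which is smaller with 1 left out. With each library left out in turn, the median log2 fold change of the 12 tested members stayed between 0.72 and 1.27. Without SOHU replicate 1, 10 of 12 members passed in edgeR; without SOHU replicate 3, 1 passed (mt-Cytb); and without SOHU replicate 2 or any naive library, 0 passed, although 5 (without SOHU replicate 2) and 9, 10 and 10 (without naive replicates 1, 2 and 3) had an unadjusted p under 0.05. Without naive replicate 1 or naive replicate 3, 0 of all 17687 genes passed in edgeR, with 3834 and 4176 at an unadjusted p under 0.05.

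**Figure D2:**
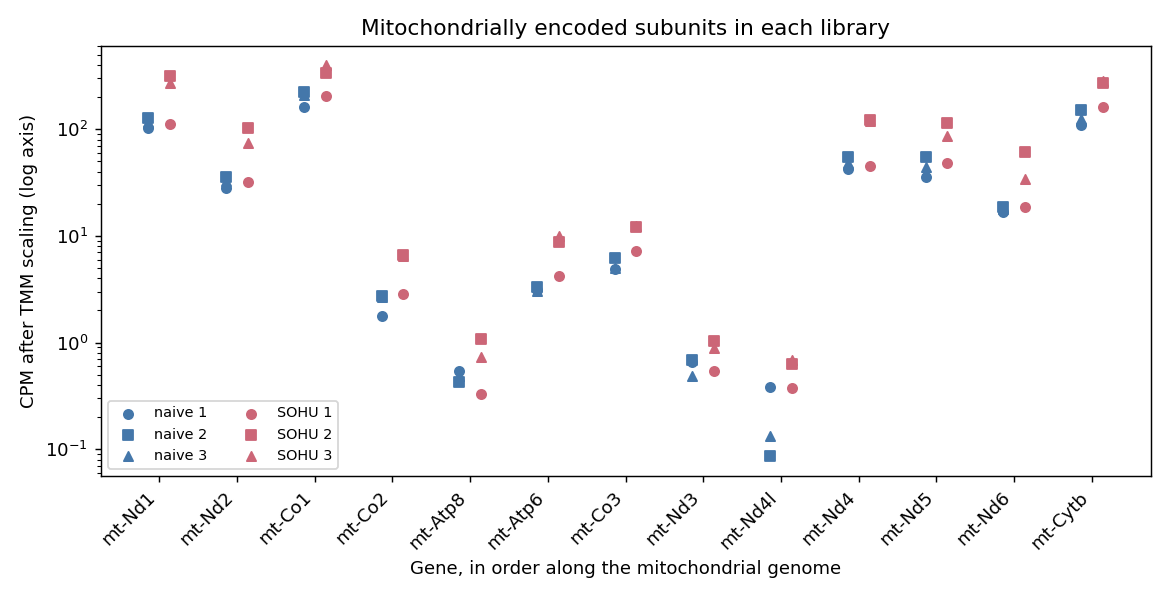
CPM after TMM scaling on a log axis for the 13 mitochondrial subunit genes, in their order along the genome, with 1 point per library. SOHU replicates 2 and 3 lie above all naive libraries in all 13 genes, while SOHU replicate 1 lies within or close to the naive range.

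The level of several of these genes cannot be compared with that of others, because a nuclear copy of a stretch of the mitochondrial genome on chromosome 1 (mm10 chr1:24611535-24616197, minus strand) carries near-identical sequences, and the handling of reads that align to several places is not given in the sources used here. Annotated copies matched mt-Nd4l, mt-Co3, mt-Atp6 and mt-Co2 over at least 99.0% of the gene and 63.6% of mt-Nd4 with 100% identity, mt-Nd3 over 99.1% with 1 difference, and 31.3% of mt-Co1 with 1 difference. The first 51 bases of mt-Atp6 and of its copy Gm10925 show why reads from them cannot be told apart, and those of mt-Nd3 and Gm28438 hold the only base that separates that pair (T3C, mitochondrial base first, counted from 1 at the 5′ end of the gene, in capitals); the letters are those of the GENCODE M21 transcripts.
mt-Atp6, chrM:7927-7977, plus strand: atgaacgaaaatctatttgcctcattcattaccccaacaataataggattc
Gm10925, chr1:24614601-24614651, minus strand: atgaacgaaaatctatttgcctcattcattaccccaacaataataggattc
mt-Nd3, chrM:9459-9509, plus strand: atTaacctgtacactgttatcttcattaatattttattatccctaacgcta
Gm28438, chr1:24613069-24613119, minus strand: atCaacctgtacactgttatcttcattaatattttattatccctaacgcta

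Reads counted for mt-Atp6 and Gm10925 were close in number, at 81 and 109, 78 and 84, and 69 and 87 in naive and 101 and 110, 196 and 136, and 245 and 268 in SOHU. mt-Co3 and its copy Gm28437 had 112 to 304 and 131 to 334 reads. Of the mitochondrial members that passed, mt-Cytb alone shared 0% of its 50-base stretches with transcripts of other genes, whereas mt-Atp6 shared 99.5% and mt-Co3 99.9%. The 5 genes with under 10% shared and at least 100 reads in each library (mt-Nd1, mt-Nd2, mt-Nd5, mt-Nd6 and mt-Cytb), a set chosen after seeing the data, had a median log2 fold change of 1.01, near the 0.98 of all 12. mt-Nd5 and mt-Nd6 overlap each other at their ends on opposite strands, and strand use in the counting is not stated.

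Taking the mean log2 CPM of each set in each library, the mitochondrial members stood at 3.67, 3.97 and 3.80 in naive and 3.90, 5.09 and 4.91 in SOHU. SOHU replicate 1 fell within the naive range and the other SOHU libraries well above it. The nuclear members stood at 7.86, 7.54 and 7.77 in naive and 7.55, 7.60 and 7.57 in SOHU, so the SOHU libraries lay between naive replicate 2 and naive replicate 3. In the difference of these means, mitochondrial minus nuclear, a common factor in a library nearly cancels. A factor on the mitochondrial genes alone, such as the amount of mitochondrial RNA carried through the pull-down, does not cancel and was not tested. The difference was -4.19, -3.57 and -3.96 in naive and -3.65, -2.52 and -2.67 in SOHU. The group means differed by 0.97, with SDs of 0.31 and 0.62 (n = 3 each), and the groups overlapped because SOHU replicate 1 lay below naive replicate 2. By itself the mitochondrial mean differed by 0.82 and the nuclear mean by -0.15.

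**Figure D3:**
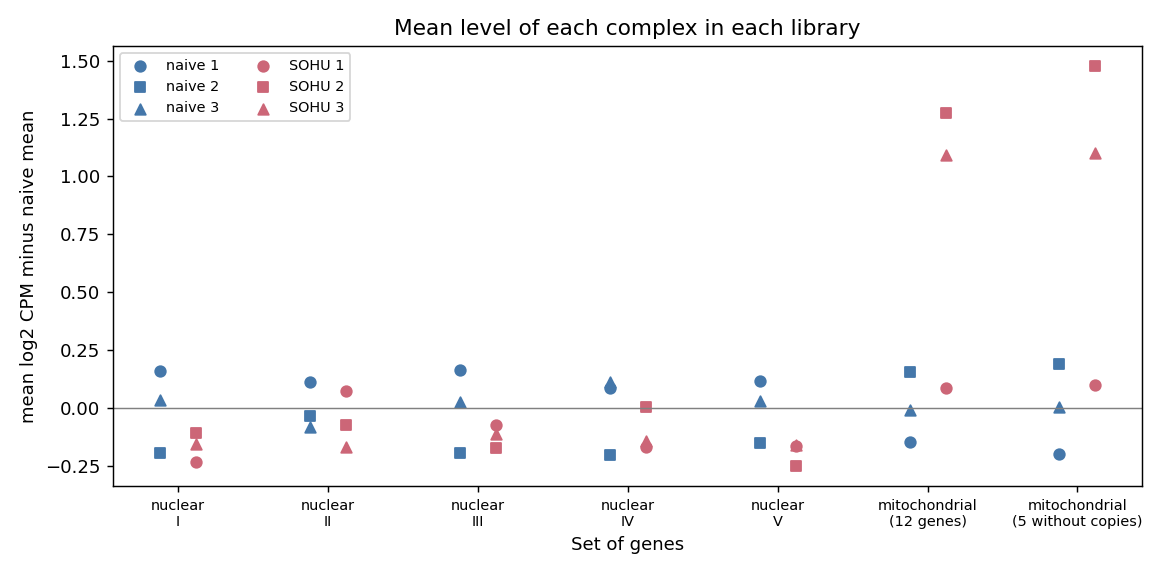
Mean log2 CPM of each complex in each library, minus the mean of the naive libraries. Sets are the nuclear members by complex, the 12 tested mitochondrial members, and 5 of these labelled as without copies. Those 5 share under 10% of their 50-base stretches with transcripts of other genes. SOHU replicates 2 and 3 reach 1.27 and 1.09 in the mitochondrial set, and naive replicate 2 lies near the SOHU libraries in the nuclear complexes.

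Complex I, the NADH dehydrogenase, had 39 nuclear members tested, of which 1 fell and 0 rose; 32 had values below 0, the median was -0.19, and 10 (25.6%, against 19.7% of all genes) had every SOHU library below every naive library. The member that fell was Ndufa10 (ENSMUSG00000026260.12, chr1:92439010-92473860, minus strand), an accessory subunit of the membrane arm. It had 405.3, 355.5 and 381.6 CPM in naive and 272.5, 242.1 and 297.8 CPM in SOHU, so all SOHU libraries were lower. It fell 1.41-fold (log2 fold change -0.49, SE 0.13, 95% interval -0.78 to -0.20, edgeR adjusted p = 0.0373), and with ganglion cell marker scaling its log2 fold change was 0.65. The 7 nuclear core subunits, which carry the flavin and iron-sulphur clusters, all had values below 0 (median -0.25), and 6 of them (85.7%, against 19.7% of all genes) did not overlap between groups, although 0 passed in edgeR. Ndufs1 and Ndufv1, the 2 with an unadjusted p under 0.05, were called by DESeq2. Ndufv1, which binds NADH and flavin, had 400.9, 350.3 and 337.5 CPM in naive and 257.1, 294.7 and 277.7 CPM in SOHU, without overlap (log2 fold change -0.39, SE 0.13, edgeR adjusted p = 0.0688). Ndufs1, the largest iron-sulphur subunit, had 147.0, 146.0 and 134.3 CPM against 103.2, 116.1 and 108.0 CPM, also without overlap (log2 fold change -0.38, SE 0.12, edgeR adjusted p = 0.0604); it shares 9 exon bases with Eef1b2 on the other strand. Ndufs3, Ndufs8 and Ndufv2 had log2 fold changes of -0.25 to -0.21 without overlap, and Ndufs7 had -0.18 with overlap.

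The 29 accessory subunits were spread around a median of -0.16, with 4 not overlapping in the lower and 1 in the higher direction (13.8% and 3.45%, below the 19.7% and 19.3% of all genes). Ndufv3, an accessory subunit of the NADH-binding module, had 299.5, 242.6 and 296.5 CPM in naive and 208.3, 178.6 and 235.0 CPM in SOHU (log2 fold change -0.43, SE 0.15, edgeR adjusted p = 0.0786). Ndufa7 had the reverse arrangement, with 376.0, 304.3 and 367.6 CPM against 422.2, 381.1 and 391.9 CPM, and all SOHU libraries above the naive ones, but its log2 fold change of 0.19 (SE 0.13) did not pass (edgeR adjusted p = 0.361). The most abundant members per length were Ndufa1 (521.5, 372.0 and 478.4 against 401.4, 488.4 and 519.8 CPM), Ndufa2 (407.5, 298.9 and 357.8 against 342.8, 413.0 and 401.0 CPM) and Ndufa4 (681.6, 515.6 and 572.8 against 513.7, 596.7 and 506.8 CPM), with means of 1106, 647 and 409 RPKM (CPM divided by the exon length in kilobases). In these 3 the groups overlapped and the log2 fold changes lay between -0.13 and 0.12. Ndufa4 carries a complex I name but is now placed in complex IV; moving it and Ndufa4l2 changed the medians of both complexes by less than the spread between libraries.

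Complex II is the small enzyme that links the citric acid cycle to the chain, and 0 of its 4 genes passed in edgeR. Sdha, the flavoprotein that oxidises succinate, had 762.5, 750.7 and 613.8 CPM in naive and 726.9, 575.9 and 567.3 CPM in SOHU. Sdhb, the iron-sulphur subunit, had 402.1, 327.1 and 344.3 against 345.5, 275.4 and 304.1 CPM, and the membrane anchor Sdhc 182.8, 170.2 and 174.3 against 171.4, 198.7 and 156.2 CPM. The other anchor, Sdhd, had 229.6, 205.7 and 205.5 against 268.9, 244.4 and 219.1 CPM. All 4 overlapped, with log2 fold changes of -0.21 for Sdhb, -0.19 for Sdha, -0.003 for Sdhc and 0.19 for Sdhd, and 0 reached an unadjusted p under 0.05 or passed in DESeq2.

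In complex III, 0 of 9 nuclear genes passed in edgeR (2 at an unadjusted p under 0.05, 1 in DESeq2) and the median was -0.12. Uqcrc2, a core protein, had 223.5, 220.2 and 203.8 CPM in naive and 182.7, 115.7 and 154.5 CPM in SOHU. All SOHU libraries were lower, with replicate 2 lowest (log2 fold change -0.52, SE 0.17, edgeR adjusted p = 0.0676; called by DESeq2). Uqcrb, a small subunit near the ubiquinone site, had 475.2, 396.1 and 480.1 CPM against 354.1, 336.2 and 365.3 CPM, without overlap (log2 fold change -0.36, SE 0.13, edgeR adjusted p = 0.0930). At the other end, the smallest subunit Uqcr11 had 530.3, 336.3 and 451.6 CPM in naive and 560.2, 546.1 and 546.7 CPM in SOHU, with all SOHU libraries above (log2 fold change 0.33, SE 0.17, edgeR adjusted p = 0.219). Uqcrq had 431.5, 302.0 and 379.7 against 373.8, 383.8 and 378.6 CPM, and Uqcr10 345.3, 244.4 and 326.1 against 305.6, 277.4 and 303.8 CPM, both overlapping. Per length, Uqcr11 (773), Uqcr10 (515) and Uqcrb (458) were the most abundant in mean RPKM. Cyc1, which passes electrons to cytochrome c, had a log2 fold change of -0.22, and the Rieske iron-sulphur protein Uqcrfs1 -0.13, both with overlap.

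Complex IV had 17 nuclear members tested, 1 of which rose and 0 fell. Cox6b2 (ENSMUSG00000051811.14, chr7:4751792-4753094, minus strand), known as the testis isoform of a subunit facing cytochrome c, had 24.4, 23.1 and 26.8 CPM in naive and 42.1, 37.8 and 30.5 CPM in SOHU. The groups did not overlap, and the rise was 1.48-fold (log2 fold change 0.57, SE 0.16, 95% interval 0.21 to 0.93, edgeR adjusted p = 0.0456). Cox4i2, an isoform of the regulatory subunit 4 known from lung and from low oxygen, had 56.6, 66.5 and 69.0 CPM against 77.9, 110.9 and 87.8 CPM, without overlap. Its log2 fold change of 0.53 (SE 0.16) missed the threshold in edgeR (adjusted p = 0.0582) and passed in DESeq2. The 11 tested members that are neither tissue-restricted isoforms nor pseudogenes all had values below 0, from -0.38 to -0.03, with a median of -0.17; 0 passed in edgeR or DESeq2 and 2 had an unadjusted p under 0.05. Among them Cox5a, a subunit on the matrix side, had 204.5, 163.7 and 196.1 CPM in naive and 135.7, 147.0 and 150.5 CPM in SOHU, without overlap (log2 fold change -0.38, SE 0.13, edgeR adjusted p = 0.0796). The most abundant per length were Cox8a (801.0, 681.6 and 821.9 against 611.2, 678.2 and 748.1 CPM), Cox6a1 (753.2, 557.2 and 693.3 against 568.2, 674.9 and 668.5 CPM) and Cox6b1 (474.2, 382.0 and 469.9 against 428.7, 428.4 and 427.2 CPM). Their mean RPKM were 1169, 930 and 615, and in each the groups overlapped.

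Because alternative isoforms replace each other in the complex, their shares of the summed RPKM of each family were compared within libraries. Cox4i2 made up 10.0, 14.3 and 12.7% of Cox4i1 plus Cox4i2 in naive and 16.4, 19.0 and 18.1% in SOHU. All SOHU shares were higher; Cox4i1 itself had 1000.1, 786.8 and 937.4 CPM against 782.7, 928.7 and 783.5 CPM, with overlap, and shares exon bases with Emc8 on the other strand. Cox6b2 made up 3.19, 3.71 and 3.52% of its pair in naive and 5.91, 5.35 and 4.36% in SOHU, again without overlap. The muscle isoform Cox6a2, at 11 to 32 reads per library, had 1.23, 0.859 and 0.884 CPM in naive and 0.499, 0.493 and 0.732 CPM in SOHU. All SOHU libraries were lower (log2 fold change -0.78, SE 0.43, edgeR adjusted p = 0.252), and its share of the pair was 0.131 to 0.168% in naive and 0.075 to 0.113% in SOHU. Cox7a1, another muscle isoform, had 22.9, 13 and 18.6 CPM in naive and 17.6, 19.2 and 16.3 CPM in SOHU, and its share (5.55 to 7.49% in naive, 6.80 to 8.35% in SOHU) overlapped too. In the same family Cox7a2 had 393.6, 300.2 and 366.8 against 271.9, 286.7 and 308.5 CPM, with overlap, and the supercomplex factor Cox7a2l 163.6, 141.1 and 150.7 against 138.2, 133.8 and 132.8 CPM, without overlap (log2 fold change -0.17, edgeR adjusted p = 0.365). Of Cox8b (15 to 79 reads) and Ndufa4l2 (5 to 166 reads), known from low oxygen, SOHU replicate 2 alone was high. Cox8b had 0.770, 1.07 and 1.86 CPM in naive and 0.872, 3.54 and 0.610 CPM in SOHU. Ndufa4l2 had 1.54, 0.687 and 0.884 CPM in naive and 0.208, 7.44 and 0.406 CPM in SOHU, and it shares exon bases with the more abundant Shmt2. Cox4i2 and Ndufa4l2 are also known from pericytes of brain vessels, and the vascular marker list rose in part in the same libraries. Its summed level was 361, 410 and 371 CPM in naive replicates 1 to 3 and 1071, 918 and 749 CPM in SOHU replicates 1 to 3. The part of the vascular markers in these shares was not tested.

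**Figure D4:**
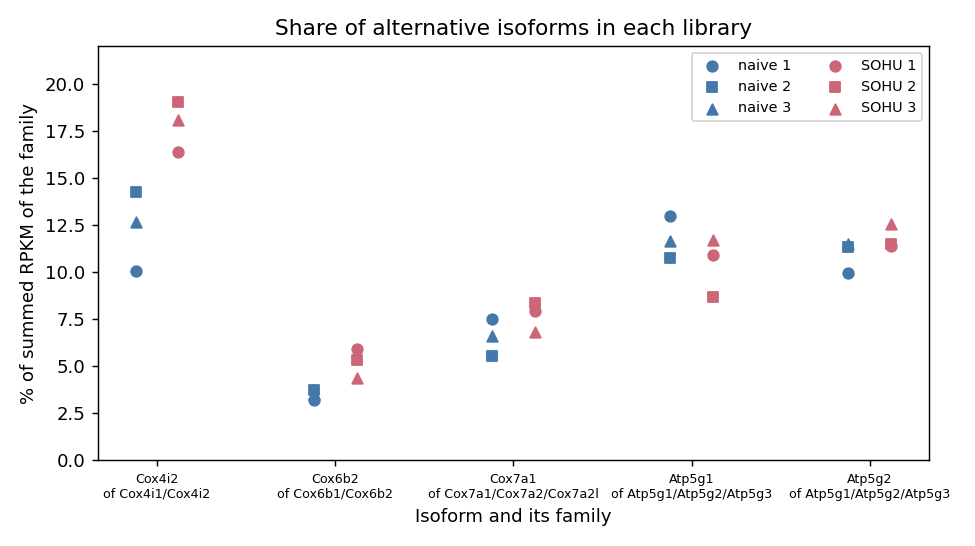
Share of each alternative isoform in the summed RPKM of its family, in percent, with 1 point per library. The SOHU points of Cox4i2 and Cox6b2 lie above all naive points, while those of Cox7a1, Atp5g1 and Atp5g2 overlap them.

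In complex V, 1 of 17 tested nuclear genes fell and 0 rose; the median was -0.20, and 7 members (41.2%, against 19.7% of all genes) did not overlap between groups, all lower in SOHU. Atp5c1 (ENSMUSG00000025781.14, chr2:10056016-10080510, minus strand), the gamma subunit that turns inside the catalytic head, had 645.6, 565.0 and 598.6 CPM in naive and 469.2, 404.1 and 447.2 CPM in SOHU. All SOHU libraries were lower, and the fall was 1.37-fold (log2 fold change -0.45, SE 0.13, 95% interval -0.74 to -0.17, edgeR adjusted p = 0.0441), whereas with ganglion cell marker scaling the log2 fold change was 0.70. Atp5b, the catalytic beta subunit and the most abundant member of the complex per length (mean RPKM 459), had 2470, 2306 and 2200 CPM in naive and 1922, 1168 and 1596 CPM in SOHU. SOHU replicate 2 was lowest, and the log2 fold change of -0.57 (SE 0.19) missed the threshold in edgeR (adjusted p = 0.0670) and passed in DESeq2. The alpha subunit Atp5a1 and the delta subunit Atp5d also did not overlap (log2 fold changes -0.31 and -0.20). In contrast the small epsilon subunit Atp5e had 126.8, 89.3 and 129.3 against 138.2, 107.0 and 119.3 CPM, with overlap and a log2 fold change of 0.08 (SE 0.17).

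Outside the head, Atp5h of the peripheral stalk had 571.6, 507.6 and 550.2 CPM in naive and 426.3, 495.6 and 446.2 CPM in SOHU, without overlap (log2 fold change -0.25, edgeR adjusted p = 0.208). Atp5g1, Atp5g2 and Atp5g3 encode the same mature protein of the rotating c-ring. Atp5g3 had 807.9, 709.8 and 790.2 against 652.6, 759.8 and 686.2 CPM, with overlap, and held 76.9 to 77.9% of the summed RPKM of the family in naive and 75.8 to 79.9% in SOHU. Atp5g1 had 305.8, 219.8 and 269.6 against 206.2, 185.9 and 238.4 CPM, and Atp5g2 79.9, 79.4 and 90.9 against 73.1, 83.7 and 87.3 CPM. Atp5g1 held 10.7 to 13% in naive and 8.67 to 11.7% in SOHU, and Atp5g2 9.93 to 11.5% and 11.4 to 12.5%, both overlapping. Atp5s, the coupling factor, had 45.2, 45.9 and 38.6 against 52.6, 39.6 and 42.8 CPM. Of the 12 tested members outside the head, 0 passed in edgeR, DESeq2 or limma-voom, and 1 had an unadjusted p under 0.05.

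The 6 members called in edgeR each lost the call when single libraries were left out. Atp5c1 and mt-Cytb kept it in 2 of the 6 omissions, and Ndufa10, Cox6b2, mt-Atp6 and mt-Co3 in 1, with adjusted p up to 0.189.

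A pattern seen in the data, and so a description, ran with the size of the subunit. Across 83 nuclear members with a coding sequence, the log2 fold change fell with coding length (Spearman rho -0.46; complex I -0.61 over 37 genes, complex V -0.53 over 17, complex IV -0.08 over 16). The median was -0.04 in the 23 members of up to 300 coding bases and -0.29 in the 18 above 700. Over 14429 protein-coding genes rho was -0.06, and over 2287 of them with a mean of at least 100 CPM it was -0.19. Libraries of the same group differed along the same line: relative to the naive mean, naive replicate 2 had rho 0.70, naive replicate 3 -0.66 and naive replicate 1 -0.28, and SOHU replicates 1 to 3 had -0.16, -0.46 and -0.46. These genes share libraries and depth, and the part of this spread between libraries in the medians by complex was not tested.

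**Figure D5:**
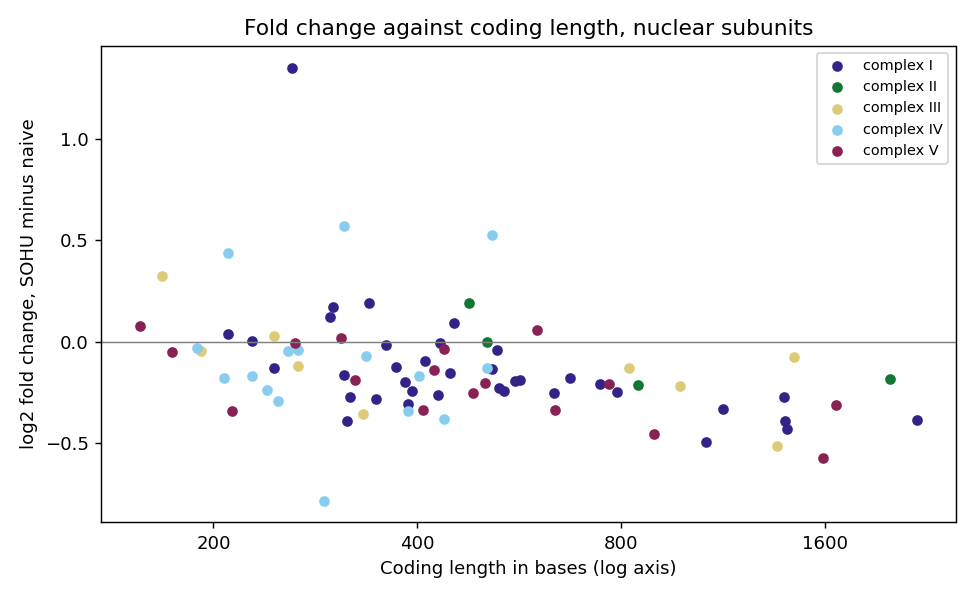
Log2 fold change, SOHU minus naive, against coding length in bases (log axis) for 83 tested nuclear members, coloured by complex. Short subunits scatter around 0 and the 18 members above 700 bases all lie below 0, between -0.57 and -0.08.

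Nuclear subunits are known to be tied together by promoter sites for NRF1, GABP and YY1, so the letters of the promoters were read from RefSeq (GRCm38.p6, 250 bases before to 50 after the gene start), which held 67 of 90 nuclear members under 66 genes. The NRF1 letters searched, on both strands, were GCGC and TGCGC separated by 1 base of any kind. They stood in at least 1 promoter window of 25.8% of these 66 genes, against 5.19% of 27025 genes in all. The GABP letters ACTTCCGG stood in 7.58% against 4.31%, and the YY1 letters AAGATGGC in 13.6% against 3.19%, each on both strands and without regard to overlaps between motifs. Of the 9 members with YY1 letters, 8 had them 22 to 38 bases after the start. These letters contain ATG, and whether a match was also the start of the coding sequence was not tested. Members with NRF1 letters had a median log2 fold change of -0.24 (17 genes tested) and those without -0.17 (48 genes). With and without YY1 letters the medians were -0.13 (9 genes) and -0.18 (56 genes), and with and without GABP letters -0.18 (5 genes) and -0.18 (60 genes). The promoters of the ATP synthase member that fell and the complex IV member that rose are shown, with that of Ndufb4, an accessory subunit of complex I with NRF1 letters at 3 places (log2 fold change -0.31, edgeR adjusted p = 0.188). For Atp5c1 the table holds a second start with the window chr2:10080461-10080760, which has no match to the 3 motifs. Capitals mark the NRF1 letters, and the windows of Cox6b2 and Ndufa10 held no match to the 3 motifs.
Atp5c1, chr2:10080383-10080682, minus strand: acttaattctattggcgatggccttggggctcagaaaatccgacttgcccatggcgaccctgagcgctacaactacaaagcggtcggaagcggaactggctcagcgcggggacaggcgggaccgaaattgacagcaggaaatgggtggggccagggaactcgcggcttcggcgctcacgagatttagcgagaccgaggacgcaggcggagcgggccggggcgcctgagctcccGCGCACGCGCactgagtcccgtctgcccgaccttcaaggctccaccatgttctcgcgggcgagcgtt
Ndufb4, chr16:37654319-37654618, minus strand: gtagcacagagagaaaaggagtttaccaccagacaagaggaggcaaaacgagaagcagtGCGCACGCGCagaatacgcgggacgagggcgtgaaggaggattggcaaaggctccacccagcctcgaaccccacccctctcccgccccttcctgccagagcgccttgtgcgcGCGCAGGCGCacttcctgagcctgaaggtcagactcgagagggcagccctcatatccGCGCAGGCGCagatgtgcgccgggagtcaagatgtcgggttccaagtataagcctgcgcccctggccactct
Cox6b2, chr7:4753045-4753344, minus strand: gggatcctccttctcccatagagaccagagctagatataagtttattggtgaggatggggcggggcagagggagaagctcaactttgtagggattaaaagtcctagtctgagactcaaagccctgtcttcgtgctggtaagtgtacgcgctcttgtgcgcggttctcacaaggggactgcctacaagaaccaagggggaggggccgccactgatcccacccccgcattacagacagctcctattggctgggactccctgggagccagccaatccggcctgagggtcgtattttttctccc

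Genes that feed, build or regulate the chain were read beside it, against the background of 5.93% of all genes lower and 8.02% higher. The edgeR calls here and in the next paragraph used TMM factors and all 6 libraries. With ganglion cell marker scaling, 0.0113% of all genes were lower and 71.7% higher. Without naive replicate 1 or naive replicate 3, 0 of all genes passed in edgeR (3834 and 4176 at an unadjusted p under 0.05). In the citric acid cycle and pyruvate dehydrogenase list, 4 of 18 genes fell and 2 rose in edgeR, with a median log2 fold change of -0.43. Pdha1, which opens pyruvate entry, had 165.8, 145.1 and 132.4 CPM in naive and 92.1, 77.4 and 97.1 CPM in SOHU and fell 1.66-fold (edgeR adjusted p = 0.0159). The NAD-linked dehydrogenase subunit gene Idh3a fell 1.56-fold, Mdh2 1.44-fold and Sucla2, the ADP-forming succinyl-CoA ligase subunit, 1.34-fold. The NADP-linked Idh2 rose 1.64-fold (65.5, 68.3 and 69.5 against 132.5, 103.8 and 96.6 CPM, edgeR adjusted p = 0.0179), and Suclg2, the GDP-forming counterpart of Sucla2, rose 1.76-fold. The outer membrane channel gene Vdac1 fell 1.42-fold (1 of 20 genes of import, chaperones, channels and carriers), and the fission GTPase gene Dnm1l and the mitophagy receptor gene Bnip3 fell 1.47- and 1.5-fold (2 of 13).

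Among 12 regulators of mitochondrial biogenesis, the nuclear receptor gene Esrrg fell 1.82-fold and 0 rose. Gabpa had a log2 fold change of 0.74 (edgeR adjusted p = 0.0728). It shares 397 exon bases with Atp5j on the other strand, which had 72369 reads over all libraries against 2474 for Gabpa. Strand use in the counting is not stated, so the Gabpa value is uncertain in that respect. Of 29 genes for copying mitochondrial DNA and handling its transcripts, Hsd17b10, a subunit of the mitochondrial RNase P, rose 1.65-fold and 0 fell, with a list median of -0.01. In edgeR 0 of 77 mitochondrial ribosomal protein genes passed, with 5 at an unadjusted p under 0.05 and 1 called by DESeq2 (median -0.06; Mrps6 0.45, adjusted p = 0.0699). The assembly factors had 0 calls in edgeR of 15 for complex I (median -0.12; Ndufaf5 -0.42, adjusted p = 0.0533), 10 for complexes II and III (-0.15), 20 for complex IV (-0.05) and 3 for complex V (0.07). In these 4 lists, 4, 2, 1 and 0 genes had an unadjusted p under 0.05, and DESeq2 called 2 for complex I and 0 in the others. Of 4 tested subunits and carriers outside the symbol patterns, 0 passed in edgeR, 2 had an unadjusted p under 0.05 and DESeq2 called 1. The value for Cycs, cytochrome c itself, was -0.56 (log2 fold change, SE 0.18, edgeR adjusted p = 0.0602).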

How the data were processed

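RNA was measured by sequencing in 6 pull-down libraries of mouse retina, 3 naive and 3 SOHU, grouped by their labelled condition. Raw counts of reads for each gene were deposited by the authors. The submitters' processing notes name featureCounts, HISAT2, HISAT, Trim Galore, MultiQC, bcl2fastq 2.17 and build mm10. For the annotation release, strand setting and treatment of multiply aligned reads, the entry is: not given in the sources used here. The table of all libraries equalled the 6 single files.

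Symbols and coding lengths came from GENCODE M21 by gene identifier (55154 of 55335 matched). Genes kept by filterByExpr (17687, at least 99.8% of reads) were scaled by TMM (factors 0.943 to 1.039) and compared with edgeR 4.0.16 in R 4.3.3 (quasi-likelihood, robust, group as the only term; common coefficient of biological variation 22.3%), adjusted by Benjamini-Hochberg over all genes, threshold 0.05. CPM are TMM-scaled; log2 CPM used a prior count of 2; RPKM divides by the summed exon length of the files, which is long for genes with retained introns and lowers their values. DESeq2 1.42.0 and limma 3.58.1 (voom), other scalings and filters, and omission of each library were alternatives. Libraries within a group differed beyond sampling noise (chi-square per degree of freedom 12.6 to 79.0).

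Members and gene lists were chosen with earlier results of these data known. Genes described with all library values are those past the threshold, all mitochondrial members with enough reads, the 3 most abundant per length and the 2 largest rises and falls of each complex, and isoform pairs; other members were named after their values were seen. A total of 24 nuclear members share over 10% of their 50-base stretches with transcripts of other genes, Uqcrc2 and Uqcrb among them, and 14 members share exon bases with a gene reaching at least 10% of their reads, so their values are uncertain in that respect. Each edgeR SE is the absolute log2 fold change divided by the square root of the F statistic of the test. The 95% intervals were built from it and cover the spread between libraries only.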

Additional observations from a re-analysis of the deposited data

How the results depend on the processing

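DESeq2 called 3775 genes in all, 9 nuclear and 10 mitochondrial members, against 2467, 3 and 3 in edgeR. Upper quartile factors gave 5 nuclear members, and no filter on low counts 7 nuclear and 5 mitochondrial members. Scaled to the nuclear members, with all genes shifted to a median log2 fold change of 0.19 and 1897 genes higher and 418 lower (1418 and 1049 before), 5 mitochondrial members passed. Nuclear medians were then 0.0037 in all, and -0.0063, 0.0809, 0.068, 0.0172 and -0.0202 in complexes I to V. A nuclear median near 0 is the construction of this scaling, which uses the reads of the nuclear members themselves. Scaled to the ganglion cell markers, with all genes at a median of 1.15, 12679 genes, 81 nuclear and 12 mitochondrial members passed. Medians were then 0.98 (nuclear), 2.08 (mitochondrial) and 0.97, 1.07, 1.05, 1.00 and 0.97 in complexes I to V. Of the members with values below 0 before, 66 became called rises there; those named in the text had log2 fold changes as follows: Ndufa10 0.65, Atp5c1 0.70, Ndufv3 0.71, Ndufs1 0.76, Ndufv1 0.77, Cox5a 0.78, Uqcrb 0.80, Atp5g1 0.82, Atp5o 0.83, Atp5a1 0.84, Ndufb4 0.84, Cox7a2 0.87, Ndufs3 0.90, Ndufs8 0.91, Atp5h 0.91, Cox6c2 0.92, Cyc1 0.94, Sdhb 0.95, Ndufv2 0.96, Atp5d 0.97, Cox8a 0.97, Sdha 0.97, Ndufs7 0.98, Cox7a2l 0.99, Atp5g3 1.02, Uqcrfs1 1.05, Cox4i1 1.05, Ndufa4 1.06, Atp5g2 1.09, Ndufs6b 1.10, Cox6a1 1.10, Cox6b1 1.12, Uqcr10 1.13, Sdhc 1.17 and Cox7a1 1.18. The shift of all genes is the construction of that scaling. Among members called in neither fit, up to 28 changed sign under a scaling, filter or tool and up to 11 when a library was left out.

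Leaving out each library in turn gave 0 to 3891 genes in all, 0 to 4 nuclear and 0 to 10 mitochondrial members in edgeR; 0 genes in all passed without naive replicate 1 (3834 at an unadjusted p under 0.05) or naive replicate 3 (4176). The nuclear median stayed between -0.25 and -0.10, the mitochondrial median between 0.72 and 1.27, and the difference of the genomes between 0.75 and 1.32. Other causes of these shifts were not tested. Whether the replicate numbers pair the libraries could not be settled. Deviations of same-numbered libraries correlated at 0.163, 0.251 and 0.004. For naive replicates 1 and 2 the same-numbered library correlated best, and for naive replicate 3 it was SOHU replicate 2 (0.095). Deviations within groups of 3 are tied to each other, so this check cannot exclude pairing. With the replicate block, 2070 of 17687 genes passed, with 0 nuclear (14 at an unadjusted p under 0.05) and 9 mitochondrial members. mt-Nd3, mt-Nd4l and mt-Atp8 are limited by few counted reads, at 2 to 24 per library. They shared 98.0%, 98.8% and 0% of their 50-base stretches with transcripts of other genes. Why so few reads were counted was not tested.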
